A study of Mus musculus with 2 samples.

Results

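Peaks of DNA N6-methyladenine (6mA) signal that were called at 1 embryonic stage and had no partner at the other, and that lay inside genes, numbered 350 of the 2245 peaks in the data. They were taken from 17 numbered chromosomes (1 to 19 without 4 and 8). A peak was kept where it shared no base with any peak of the other stage's list and where its summit lay in the body of a RefSeq protein-coding or long non-coding gene. Peaks in the 1 Mb windows at 85 to 86 Mb of chromosome 1 and at 43 to 44 Mb of chromosome 14 were left out. The list of embryonic day 8.5 (E8.5) gave 154 such peaks of 1006, and that of embryonic day 9.5 (E9.5) gave 196 of 1239. The peaks were thus chosen by the authors' calls, that is by coverage over background in each library. The strength of a peak and its absence from the other list are given below as descriptions with no test.

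The libraries were 6mA MeDIP-seq of mouse brain, 1 from E8.5 and 1 from E9.5, and the labels give both as untreated. The sources used here name no strain, genotype or sex, nor how many embryos were pooled. The labels' protocols also describe a low-folate line of stem cells and embryos exposed to the folate antagonist methotrexate, neither of which was analysed here. The same input DNA was the control of both lists, and the sources used here do not name its stage. The libraries held 15375941 (E8.5) and 15349825 (E9.5) fragments after removal of copies, and the input 9603633. With 1 library per stage, a difference between the lists cannot be told apart from a difference between those libraries, and the tissue could not be checked, since DNA peaks carry no expression markers.

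In 6mA, adenine carries a methyl group on its amino nitrogen. The mark is abundant in bacteria, where it helps to tell the cell's own DNA from foreign DNA, while its amount and role in mammalian DNA are debated. MeDIP pulls down sheared DNA with an antibody against the modified base, and the enriched fragments are found by sequencing against an unselected input. Many genes of the developing and mature brain, such as those for synaptic adhesion proteins and receptors, have very long bodies, so that peaks scattered over the genome meet them often.

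Of the 350 peaks, 3 reached a promoter window, taken as the stretch from 250 bases before to 50 bases after a transcription start in RefSeq's table for GRCm38.p6 (mm10). Only 247 of the 308 hosts had such a window, so more peaks could lie at starts. The 3 sequences before the start are shown because they are the only stretches of the peaks for which sequence was at hand. Each is written 5′ to 3′ on the gene's strand, which is the minus strand for all of them, with the bases inside the peak in capitals. The windows belong to Prl2c3, a prolactin-family hormone gene (chr13:12800080-12800329), to the predicted gene Gm36798, which lies inside the long non-coding gene Gm36684 (chr17:13178741-13178990), and to Pramel43, a PRAME-like gene inside the body of Pramel44 (chr5:94616341-94616590).
Prl2c3: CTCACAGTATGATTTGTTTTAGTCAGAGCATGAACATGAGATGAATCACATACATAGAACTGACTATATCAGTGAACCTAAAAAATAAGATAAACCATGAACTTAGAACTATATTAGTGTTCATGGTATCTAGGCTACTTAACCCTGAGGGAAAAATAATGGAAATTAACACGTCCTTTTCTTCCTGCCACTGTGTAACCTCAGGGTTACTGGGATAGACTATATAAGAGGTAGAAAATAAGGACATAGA
Gm36798: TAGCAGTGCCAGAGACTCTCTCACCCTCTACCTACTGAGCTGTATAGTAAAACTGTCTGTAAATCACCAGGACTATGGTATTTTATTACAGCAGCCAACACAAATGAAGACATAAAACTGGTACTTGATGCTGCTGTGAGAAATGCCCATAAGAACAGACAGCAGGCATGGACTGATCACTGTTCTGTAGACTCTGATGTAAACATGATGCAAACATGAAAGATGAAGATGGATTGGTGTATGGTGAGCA
Pramel43: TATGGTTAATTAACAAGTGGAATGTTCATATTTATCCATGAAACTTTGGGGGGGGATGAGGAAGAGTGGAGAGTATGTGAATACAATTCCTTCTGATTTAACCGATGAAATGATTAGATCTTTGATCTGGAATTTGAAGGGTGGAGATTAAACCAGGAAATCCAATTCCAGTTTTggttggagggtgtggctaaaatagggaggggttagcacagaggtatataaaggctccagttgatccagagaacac

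The Prl2c3 peak belonged to E8.5, with a coverage of 12 fragments at its summit and a fold over background of 2.29. Its summit lay 2 bases inside the gene body, at the start. The peaks at Gm36798 and Pramel43 belonged to E9.5, with 10 fragments and a fold of 2.59, and with 14 fragments and a fold of 3.62. All 3 windows were rich in A and T. Over its 300 bases the Prl2c3 window held 62% A+T, that of Gm36798 58.7% and that of Pramel43 57%, where the median of all 32851 windows was 47.3%. CG pairs numbered 2, 0 and 1 in the same order, against a median of 7. The letters TATAAA, searched on both strands, stood in the Pramel43 window and in neither of the others, and stood in 13.6% of all windows. The Prl2c3 window matched that of Prl7d1, another prolactin-family gene, at 95% of positions without gaps, and the placing of fragments between such copies was not tested. The closest other windows of Gm36798 and Pramel43 matched at 36.7% and 38.3%. Of the peaks of whatever kind on the analysed chromosomes, 2 of 515 at E8.5 and 2 of 691 at E9.5 touched a promoter window. The share of the genome in such windows was not computed, so these counts are not read as few or many.

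Most of the single-stage gene peaks were shallow. The coverage at the summit, the authors' pileup, had a median of 10 fragments at both stages, with quartiles of 9 and 11 and a lowest value of 8. It was 12 or lower in 127 of 154 E8.5 peaks (82.5%) and in 174 of 196 E9.5 peaks (88.8%). The fold over background had a median of 2.47 (quartiles 2.38 and 2.86) at E8.5 and 2.62 (2.41 and 2.86) at E9.5. A coverage of 10 carries an exact 95% Poisson interval of 4.80 to 18.4 fragments. Such intervals, and the binomial ones below, cover counting error only, and PCR copies are not independent molecules.

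The background under 107 E8.5 peaks (69.5%) and 136 E9.5 peaks (69.4%) was the lowest the authors' caller allows, 3.05 and 3.14 fragments. That floor depends on the genome size given to the caller, which the file headers put below the length of the mouse genome, and how another size would change the calls was not tested. On the floor the fold depends on the coverage alone, so the folds stood on steps. At E8.5, 37 peaks had 9 fragments and a fold of 2.47, and 27 had 10 fragments and a fold of 2.71. At E9.5, 42 peaks had 9 fragments and a fold of 2.41, and 39 had 10 fragments and a fold of 2.66. Genes on the same step therefore had equal values by construction, and no order was read among them. E8.5 peaks had a median length of 300 bp and those of E9.5 one of 328 bp, close to the mean fragment sizes of 256 and 271 bp, which were also the lengths of the shortest peaks.

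A q-value of 0.05 or below was reached by 4 E8.5 peaks (2.60%) and 7 E9.5 peaks (3.57%), where 12.8% of all peaks of the E8.5 list and 12.8% of the E9.5 list reached it. At E8.5 138 peaks (89.6%) had a q-value of 1, as had 179 (91.3%) at E9.5. Single-stage peaks outside genes had similar values, with 3.33% and 3.21% at that q and median folds of 2.58 and 2.60. Of them 86.3% and 82.5% had a coverage of 12 or lower. The lowest background lay under 67.4% and 66.7% of them, and under 46.3% and 48.7% of all peaks of the lists. Peaks inside genes that the lists shared had median coverages of 29 and 24.5 fragments, and 54.3% and 61.8% of them reached the q. Only 14.3% and 14.7% of those shared peaks stood on the lowest background. Their median folds, 2.65 and 2.61, were close to those of the single-stage peaks, but their folds were spread more widely, with quartiles of 1.95 and 3.59 at E8.5 and 2.01 and 3.60 at E9.5.

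At E8.5 the peak with the highest fold lay in Gm30613, a long non-coding gene on chromosome 5 (15604600 to 15605004), with 18 fragments (10.7 to 28.4), a fold of 4.69 and q = 0.000136. Its summit was 210 bp inside the gene's start. The next lay in Actb, which encodes cytoplasmic beta-actin, a major building block of the cytoskeleton (chromosome 5, 142905339 to 142905693). That peak had 16 fragments, a fold of 4.20 and q = 0.00394, in a gene only 4.86 kb long. Tcp10c, a member of a testis gene family in the t-complex region of chromosome 17, held a peak with 16 fragments, a fold of 3.77 and q = 0.0212. Cyp2c39, a cytochrome P450 gene on chromosome 19, held one with 17 fragments, a fold of 3.53 and q = 0.0370. The other hosts among the 10 highest folds at E8.5 were Gm21149, Gm12132 and Gm5591, each at 3.70, and Gm10220, Gm33963 and Casp1, each at 3.46. Casp1 encodes the protease that matures interleukin-1.

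At E9.5 the highest fold lay in Arhgef38, which encodes an exchange factor for small GTPases (chromosome 3, 133124270 to 133124645), with 20 fragments (12.2 to 30.9), a fold of 5.00 and q = 6.36e-06. Arnt, the shared partner of the aryl hydrocarbon receptor and of hypoxia-inducible factors, held a peak on chromosome 3 (95471576 to 95471950) with 15 fragments, a fold of 3.86 and q = 0.0211. Pfdn4 encodes a subunit of prefoldin, a chaperone for newly made actin and tubulin, and its peak on chromosome 2 had 15 fragments, a fold of 3.81 and q = 0.0249. Others among the 10 highest folds were Gm40261 and Pramel44 at 3.62, LOC115490388 at 3.47, Tbc1d23 and Immp2l at 3.38 and Ifit3 at 3.28. Immp2l encodes a protease of the mitochondrial inner membrane, Tbc1d23 a protein of endosome to Golgi traffic, and Ifit3 an interferon-induced antiviral protein.

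A further 3 peaks at that q stood on high backgrounds. Both E9.5 peaks of Tmem267 on chromosome 13 belong here. The peak at 119598850 to 119599159 had 464 fragments over a background of 210 and a fold of 2.20, and that at 119599782 to 119600585 had 101 over 48.7 and a fold of 2.05. The nearest peak of the E8.5 list lay 1750 bp from the first of them, and a different one lay 1257 bp from the second. Gm40363 on chromosome 6 (47737930 to 47738281) had 49 fragments over 16.0 and a fold of 2.94. Sfi1, whose product belongs to centriole-linked filaments, had 3 peaks at E8.5 with 88, 96 and 117 fragments and 2 at E9.5 with 98 and 119, at folds of only 1.27 to 1.62.

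**Figure D1:**
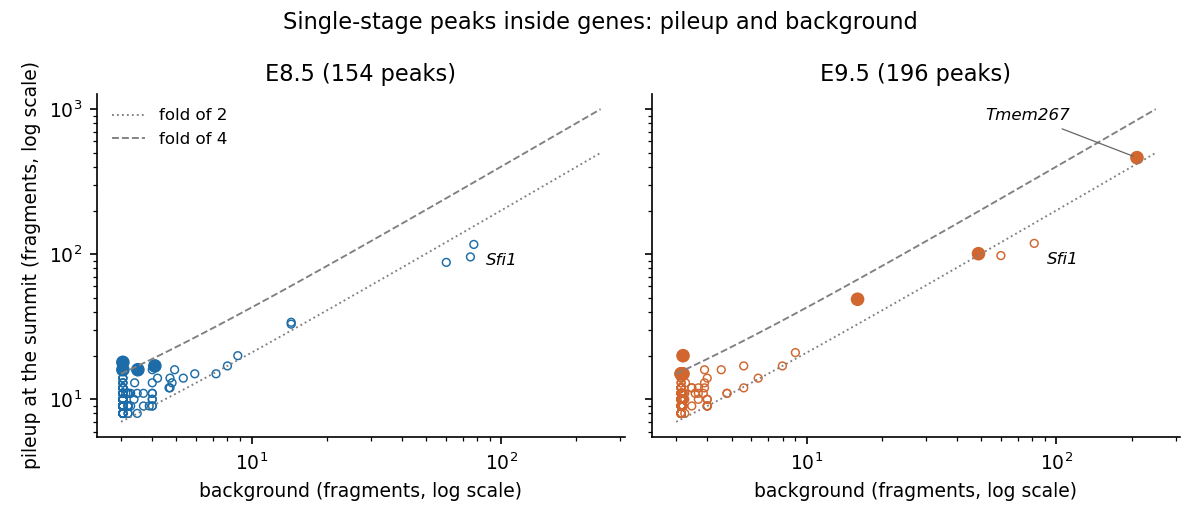
Coverage at the summit against the background under it, in fragments on log axes, for each single-stage peak inside a gene, with E8.5 on the left and E9.5 on the right. Filled points have a q of 0.05 or below (4 and 7 peaks), lines mark folds of 2 and 4, and most points crowd at backgrounds near 3.05 and 3.14 with 8 to 12 fragments, far below the peaks of Sfi1 and Tmem267.

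The hosts were 143 genes at E8.5 and 178 at E9.5, or 308 in all. Where a summit lay in several gene bodies, which held for 7 E8.5 and 15 E9.5 summits, a protein-coding gene was taken before a non-coding one and then the longest. Counting every gene that held a summit, 149 of the 29158 genes on these chromosomes (0.511%) held an E8.5 summit, while 206 (0.706%) held one of E9.5. Among protein-coding genes the shares were 0.641% and 0.838%. Protein-coding hosts held 126 E8.5 peaks (81.8%, exact binomial interval 74.8 to 87.6%) and 151 E9.5 peaks (77.0%, 70.5 to 82.7%), and protein-coding genes make up 85.2% of gene-body bases. Long non-coding genes held the other 28 and 45.

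Hosts were long compared with genes at large, but a peak that falls anywhere in gene bodies meets long genes more often. The median host length was 78.5 kb at E8.5 and 123 kb at E9.5, counting each peak, against 12.9 kb over all genes. Over all gene-body bases the median was 116 kb, with quartiles of 43.8 and 327 kb. The quartiles were 30.7 and 227 kb at E8.5 and 44.7 and 334 kb at E9.5. Genes of at least 100 kb hold 54.2% of gene-body bases. They held 106 E9.5 peaks (54.1%, 46.8 to 61.2%) and 69 E8.5 peaks (44.8%, 36.8 to 53.0%). Of the 2294 genes of that length, 2.92% held an E8.5 summit, while 4.84% held one of E9.5. The E9.5 interval takes in the share of bases, and the E8.5 interval ends just under it. Most alternatives gave intervals that took in the same 54.2%. That share of bases was not recomputed for each alternative, although some change the set of genes, and fewer peaks widen an interval. Whether the gap closes was therefore not settled. The E8.5 share was 48.5% (39.9 to 57.2%) without peaks that had one of the other library within 10 kb. It was 51.6% (42.5 to 60.6%) without crowded 1 Mb windows and 52.3% (42.5 to 62.1%) on the lowest background alone. The median hosts under these were 96.9, 105 and 107 kb. Protein-coding genes only gave 46.0% (37.1 to 55.1%), and the 4 peaks with a q of 0.05 or below gave 25% (0.631 to 80.6%). Those 4 peaks are too few to show a gap. The gap stayed with midpoints in place of summits (37.3 to 53.7%) and with the shortest gene as host (36.8 to 53.0%).

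**Figure D2:**
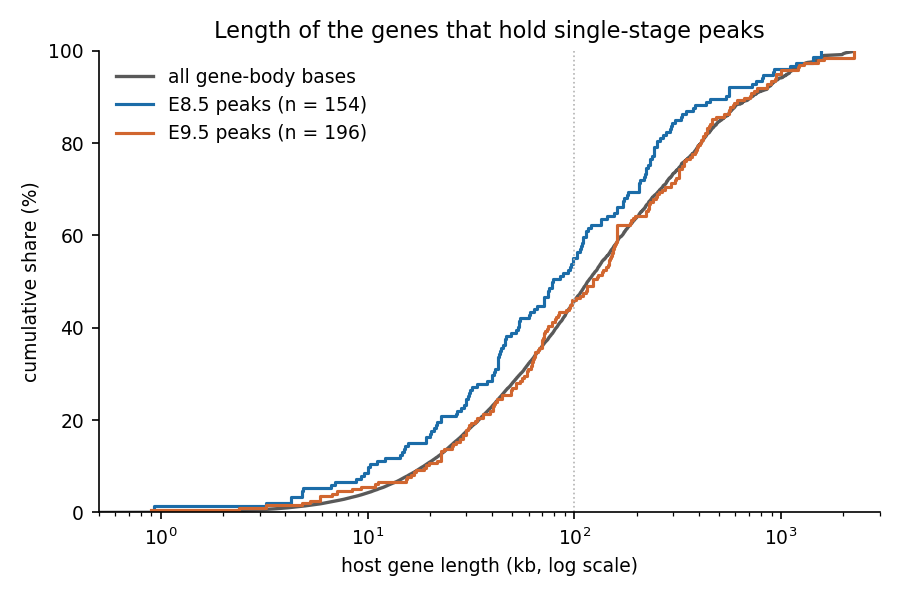
Cumulative share, in percent, of single-stage gene peaks (154 at E8.5, 196 at E9.5) and of all gene-body bases by length of the gene, in kb on a log axis. The E9.5 curve runs along that of the bases, and the E8.5 curve lies to the left of both, with a median of 78.5 kb against 123 and 116 kb. The dotted line marks 100 kb.

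The stages stood furthest apart in genes of 300 kb or more, a limit chosen after the values were seen. Such genes held 24 E8.5 peaks (15.6%, 10.2 to 22.3%) and 56 E9.5 peaks (28.6%, 22.4 to 35.4%), and hold 26.7% of gene-body bases. Between 300 kb and 1 Mb there were 8.5 peaks per 100 Mb of gene body at E8.5 (exact Poisson interval 5.04 to 13.4) and 21.7 at E9.5 (15.9 to 29.0). In genes under 10 kb the rates were 30.1 and 25.5, and between 100 and 300 kb they were 16.0 and 17.8. Both rates under 10 kb were the highest of the 6 length classes, but they rest on 13 and 11 peaks, and their intervals, 16.0 to 51.5 and 12.7 to 45.6, overlap those of most other classes. Among peaks on the lowest background alone, genes of 300 kb or more held 16.8% at E8.5 and 35.3% at E9.5. None of the peaks with a q of 0.05 or below lay in a gene of that length.

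**Figure D3:**
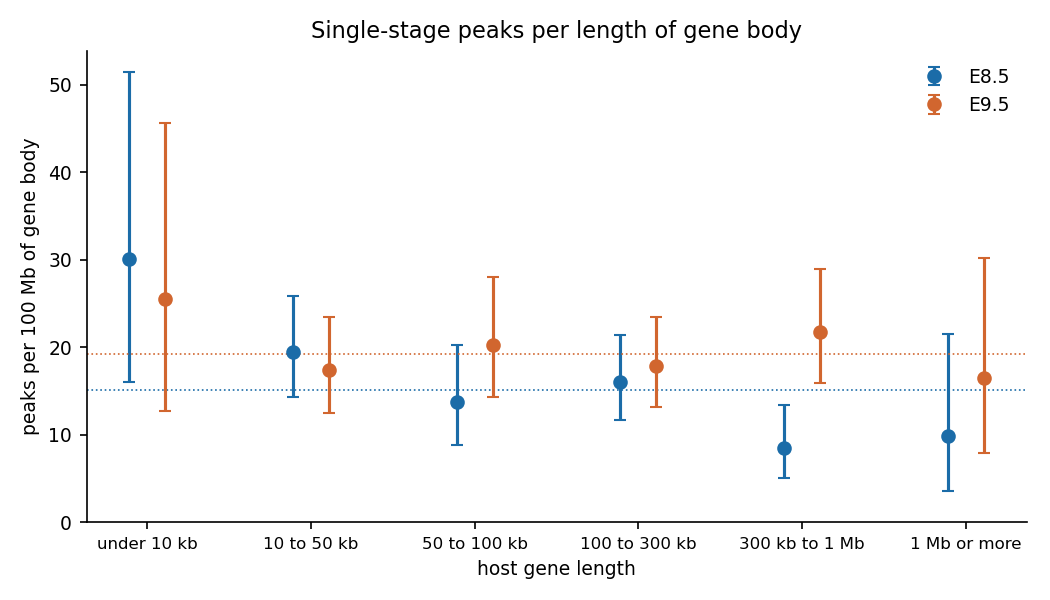
Single-stage peaks per 100 Mb of gene body in 6 classes of gene length, for E8.5 and E9.5, with exact 95% Poisson intervals. Dotted lines mark each stage's rate over all gene bodies. The intervals of the stages overlap in each class but that of 300 kb to 1 Mb, where the points lie at 8.5 and 21.7.

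The longest hosts at E9.5 included Cntnap2 (2241 kb, 3 peaks), Fhit (1612 kb), Dpp10 (1514 kb) and the long non-coding Gm32647 (1284 kb). Cntnap2 encodes a neurexin-like adhesion protein that gathers potassium channels along myelinated axons, Dpp10 a partner of potassium channels and Fhit a diadenosine-triphosphate hydrolase. At E8.5 they were Pcdh15 (1554 kb, 2 peaks), Gpc5 (1433 kb, 2 peaks), the non-coding Snhg14 (1177 kb), Nrg3 (1108 kb) and Grm7 (922 kb). Pcdh15 encodes a cadherin of the tip links between hair-cell stereocilia, Gpc5 a heparan sulfate proteoglycan, Nrg3 a ligand of the ErbB4 receptor and Grm7 a metabotropic glutamate receptor. The shortest hosts were vomeronasal receptor genes, at 0.921 kb (Vmn1r238, E8.5) and 0.900 kb (Vmn1r18, E9.5).

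Along the gene, peaks were spread over the whole body. For the hosts whose strand was known, 5 equal stretches from start to end held 18, 34, 29, 22 and 18 of 121 E8.5 peaks and 35, 30, 34, 27 and 34 of 160 E9.5 peaks. Within 1 kb of the start lay 6 E8.5 peaks (4.96%) and 4 E9.5 peaks (2.50%). From a summit to the nearer gene end the median distance was 18.7 kb at E8.5 and 25.5 kb at E9.5. The summits closest to an end were those of Gm5878 (0 bp), Prl2c3 (2 bp), Ifit3 (13 bp) and Gm30613 (210 bp). Just outside the rule, the nearest single-stage summits lay 16 bp from Gm52862, 155 bp from Gm17026 and 237 bp from Vmn2r95.

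Each host was placed by hand, after its name was known, in 1 of 12 classes of function, and these counts are a description. Genes without a peak were not placed, so no share of all genes or of gene-body bases stands beside a class. The class of neuronal surface proteins, synapse and excitability held 11 E8.5 peaks (7.14%, 3.62 to 12.4%) and 32 E9.5 peaks (16.3%, 11.4 to 22.3%). The intervals overlap, and the median hosts of that class were 755 and 463 kb long. At E8.5 the members were Unc80 (fold 2.96), a subunit of the sodium leak channel, Grm7 (2.96), Nrg3, Sema5a and Dpp6 (2.71), Nbea, Negr1, Adgrl3 and Npsr1 (2.47), Mbp (2.34) and Cacna2d3 (2.22). Sema5a guides axons, Negr1 and Adgrl3 act in neuronal adhesion, Mbp is myelin basic protein, and Cacna2d3 is an accessory subunit of calcium channels. Each of these 11 genes had 1 peak.

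At E9.5 the 32 peaks of the neuronal class lay in 29 genes, with folds of 2.17 to 3.14 and 8 to 13 fragments. Genes of the sending side of the synapse were Rims2 and Erc2 (both 2.66), scaffolds of the vesicle release site, Syn2 and Syt2 (2.66), proteins of synaptic vesicles, Rab3c (2.86), a vesicle GTPase, and Apba2 (2.86), an adaptor. On the receiving side stood Grid1 (3.14), Grin2a (2.41) and Grm3 (2.41), which encode glutamate receptors, Cacng2 (2.66), which escorts AMPA receptors, and Dlgap4 (3.14) and Dlgap1 (2.66), scaffolds of the postsynaptic density. Channel genes were Cacna1c (2.20), Kcnma1 (2.17) and Kcnh1 (2.41). Adhesion and matrix genes were Cntnap2 (3.14, 2.41 and 2.41), Tenm4 (2.66), Ntng1 (2.90), Clstn2 (2.41) and Tnr (2.41). Of the 32 peaks, 28 stood on the lowest background, where a fold of 2.66 means 10 fragments, and none had a q of 0.05 or below. Nbea, which encodes neurobeachin, a protein of synaptic receptor traffic, was the class's only host with a peak at each stage.

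**Figure D4:**
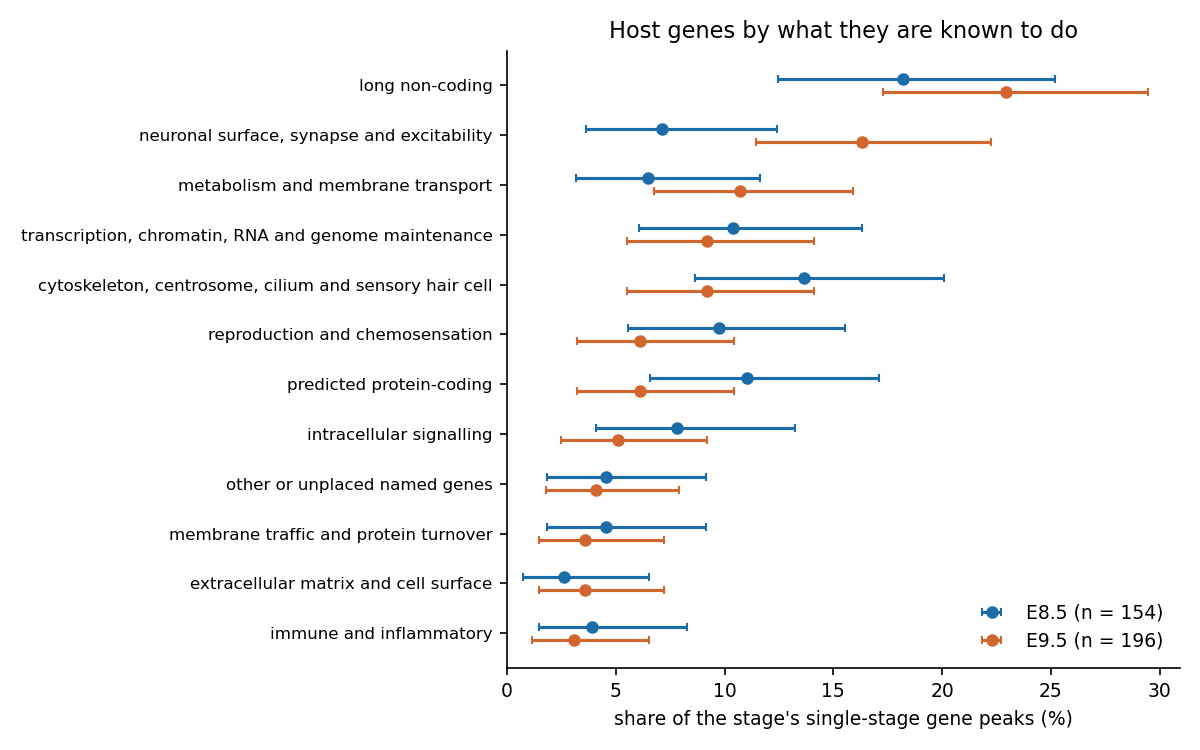
Share of each stage's single-stage gene peaks, in percent, in 12 classes of host function, with exact 95% binomial intervals (n = 154 at E8.5 and 196 at E9.5). The neuronal class shows 7.14% at E8.5 and 16.3% at E9.5 with intervals that overlap. The share of gene-body bases in each class is not known.

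Genes of the cytoskeleton, centrosome, cilium and sensory hair cell held 21 E8.5 peaks (13.6%, 8.64 to 20.1%) and 18 E9.5 peaks (9.18%, 5.53 to 14.1%). At E8.5 several of these are genes of hair-cell links, photoreceptors or cilia. Ptprq (2.96), Adgrv1 (2.86) and Pcdh15 (2.47 and 2.22) encode link proteins of the hair bundle, Rp1 (2.96) a microtubule protein of photoreceptors, Dnah7b (2.71) an axonemal dynein and Pkhd1 (2.04) fibrocystin. Their coverages ran from 8 to 11 fragments. Of 8 genes of hair-cell links and photoreceptors, chosen after the hosts were seen, 5 had a peak at E8.5 and 1 had a peak at E9.5. The 5 were Ptprq, Adgrv1, Pcdh15, Rp1 and Pkhd1l1 (2.38), without Dnah7b and Pkhd1. These were 6 peaks at E8.5 and 1 peak at E9.5, where the share of bases would give 0.585 and 0.744. Since the genes were chosen with their peaks known, no excess is read from these counts. The gene with an E9.5 peak was Rp1, whose E9.5 peak (2.38) lay 28.4 kb from its E8.5 peak. At E9.5 the class also held Syne2 (2.41), which ties the nucleus to the cytoskeleton, Dnah11 (2.41), Fmn1 (2.17), an actin-nucleating formin, and Pard3b (3.14 and 2.00), a polarity protein.

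Genes of transcription, chromatin, RNA and genome maintenance held 16 E8.5 peaks (10.4%) and 18 E9.5 peaks (9.18%). At E8.5 they were led by Ercc8 (3.21), a gene of transcription-coupled DNA repair, and Myef2 (2.96). Next to Arnt, the E9.5 hosts included Myt1l (3.14), a neuronal zinc-finger factor. They also held Tcf7l2 (2.62), the DNA-binding partner of beta-catenin in Wnt signalling, Arid4b (2.90), Maml3 (2.73), a Notch co-activator, and Esr1 (2.07), the estrogen receptor. Dach1, a co-repressor of developing eye and limb, had a peak at each stage (2.40 and 2.90). Signalling genes held 12 and 10 peaks, led by Pkib (3.21), an inhibitor of protein kinase A, at E8.5 and by Adcy9 (2.90), an adenylyl cyclase, and Dusp16 (2.90), a phosphatase of MAP kinases, at E9.5.

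Genes of metabolism and membrane transport held 10 E8.5 peaks (6.49%) and 21 E9.5 peaks (10.7%). Besides Cyp2c39 and Immp2l they held Clybl, a mitochondrial enzyme gene, at both stages (3.21 and 3.14), Agmo (3.14 and 2.90 at E9.5), which cleaves ether lipids, Slc4a7 (2.90 at E9.5), a bicarbonate transporter, and Oca2 (2.71 at E8.5), a melanosome protein. Membrane traffic and protein turnover held 7 peaks at each stage, led by Rnf41 (3.21) at E8.5 and Tbc1d23 (3.38) at E9.5. Extracellular matrix and cell-surface genes held 4 and 7, and immune genes 6 at each stage. Among the immune hosts, Ifit3 (3.28) and Ifit1bl1 (2.66 and 2.41) are neighbours on chromosome 19, and all 3 of these peaks belonged to E9.5. A further 7 and 8 peaks lay in named genes that were not placed in any class.

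Genes of reproduction and chemosensation held 15 E8.5 peaks (9.74%, 5.55 to 15.6%) and 12 E9.5 peaks (6.12%, 3.20 to 10.5%), in hosts with median lengths of 21.4 and 22.7 kb. Only 4 and 5 of them stood on the lowest background. PRAME-like genes are a rodent-expanded family active in germ cells and early embryos. Some, such as Pramel24, lie on chromosome 4, which was left out. The PRAME-like hosts lie in a cluster on chromosome 5. There E8.5 peaks lay in Pramel33 (2.71), Pramel38 (2.47), Pramel40 and Pramel42 (2.38), and E9.5 peaks in Pramel44 (3.62 and 2.66), Pramel34 (2.82 and 2.66) and Pramel48 (2.62). By their share of gene-body bases the 21 PRAME-like genes on the analysed chromosomes would hold 0.0650 and 0.0827 peaks. The counts were 4 and 5, and the family was chosen after its peaks were seen. Vomeronasal receptors, which detect pheromones, held 4 E8.5 peaks, the highest in Vmn2r114 (3.40), and 2 E9.5 peaks, in Vmn1r18 (2.62) and Vmn2r115 (2.07). Prolactin-family genes held 1 each, Prl2c3 at E8.5 and Prl2c2 (2.41) at E9.5. By their share of bases the 348 vomeronasal genes would hold 0.537 and 0.683 peaks, and the 25 prolactin-family genes 0.0304 and 0.0387. Both of these families were also chosen after the hosts were seen. Members of these families resemble each other in sequence, and the assignment of fragments between copies was not tested.

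Long non-coding hosts had median lengths of 70.7 kb at E8.5 (28 peaks, 18.2%) and 64.6 kb at E9.5 (45 peaks, 23.0%). After Gm30613 the highest E8.5 folds among them were those of Gm12132 (3.70) and Gm33963 (3.46), and at E9.5 those of Gm40261 (3.62) and LOC115490388 (3.47). Snhg14 (2.20 at E8.5) is the transcript that runs antisense to Ube3a. Predicted protein-coding genes without a named function held 17 E8.5 peaks (11.0%) and 12 E9.5 peaks (6.12%). An E9.5 peak of this class, counted under Gm37013 (2.00), lay in 15 overlapping gene bodies, 12 of them genes of the protocadherin alpha cluster, so that it is 1 peak and not 12. Genes with Gm symbols held 41 E8.5 and 57 E9.5 peaks, where their share of bases would give 23.7 and 30.1.

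Lists of genes that bear on the study's question held few of these peaks. No gene had a peak at either stage among 51 genes of neural tube closure, 32 of folate metabolism, 21 enzymes of 6mA and cytosine methylation, 29 of H3K9 methylation and heterochromatin, 19 markers of blood and endothelium and 22 of pluripotency and germline. By their share of bases these lists would have held 0.569 or fewer E8.5 peaks and 0.725 or fewer E9.5 peaks each, so a count of 0 carries little. Of 64 genes of the Wnt, Shh, BMP, FGF and retinoic acid pathways, none had an E8.5 peak, and Fgf14 (2.41) and Tcf7l2 had an E9.5 peak. By their share of bases these genes would hold 0.891 and 1.13 peaks. Of 60 neural progenitor and patterning factors, Dach1 had 1 peak at each stage, where the share of bases would give 1.86 and 2.37. Of 29 imprinted genes, Kcnq1 (2.62), a potassium channel gene, had an E9.5 peak, where the share would give 0.259 at E8.5 and 0.330 at E9.5. The E8.5 host Snhg14, which runs antisense to Ube3a, was not counted in that list. These counts are near those shares.

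Lists of long genes have larger shares of bases. Their counts lay below those shares at E8.5 and on both sides of them at E9.5. Of 48 genes of synapse scaffolds and vesicle release, none had an E8.5 peak and 6 had 8 E9.5 peaks, where the share of bases would give 3.80 and 4.83. The 6 were Cntnap2, Dlgap1, Dlgap4, Erc2, Rims2 and Syn2. Of 67 genes of axon guidance and neural adhesion, 2 had a peak at each stage, Sema5a and Negr1 at E8.5 and Ntng1 and Tenm4 at E9.5, below the 5.35 and 6.81 peaks of their share of bases. Common fragile sites are stretches that break under replication stress, mostly in very long genes. Of 30 such genes, Nbea and Exoc4 (2.96) had an E8.5 peak, and 8 had 11 E9.5 peaks, where the share of bases would give 4.96 and 6.31. The 8 included Cntnap2, Fhit, Immp2l, Ccser1 (2.91), Pard3b, Thsd7a (2.90) and Nbea. Cntnap2 stands in both lists with its 3 peaks, so the lists are not independent. Of the 46 genes of 1 Mb or more, 8.70% held a peak of E8.5, while 15.2% held one of E9.5.

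Receptor and channel families held few peaks, and their counts are given beside those by their share of gene-body bases. Of 17 ionotropic glutamate receptor genes, none had an E8.5 peak and 2 had an E9.5 peak, where the share would give 0.850 and 1.08 peaks. Of 8 metabotropic ones Grm7 had a peak at E8.5 and Grm3 had one at E9.5, against 0.466 and 0.593. Of 93 potassium channel genes, 3 had an E9.5 peak and none an E8.5 peak, against 1.63 and 2.08. Of 16 GABA and glycine receptor genes and 18 sodium channel genes, none had a peak at either stage, where the shares would give at most 0.489 peaks. Of 337 solute carrier genes, Slc4a7 alone had a peak, at E9.5, where the share would give 2.66 and 3.39 peaks. Of 367 zinc finger genes, Zfp936 and Zfp607b had peaks at E8.5 and Zfp936 and Zfp697 had peaks at E9.5. These were 3 peaks a stage, against 1.64 and 2.08.

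Different peaks of both stages lay in the same host for 13 genes, 9.09% of the E8.5 hosts and 7.30% of the E9.5 hosts. Over all genes on these chromosomes 0.511% held an E8.5 summit and 0.706% one of E9.5. Over genes of at least 100 kb the shares were 2.92% and 4.84%. Summits in 1 gene can lie no farther apart than its length, and these 13 hosts had a median length of 77.9 kb. Where a host held several peaks of a stage, the nearest pair was taken. The peaks shared no base by the rule. Their nearest E8.5 and E9.5 summits had a median distance of 12.2 kb, and 6 of 13 lay within 10 kb. The closest were those of the non-coding Gm34196, 0.692 kb apart on chromosome 13, and of Clybl, 0.847 kb apart on chromosome 14. The Gm34196 peaks, with 10 and 9 fragments and folds of 2.71 and 2.41, missed each other by 136 bp. The Clybl peaks, both with 12 fragments and with folds of 3.21 and 3.14, missed by 533 bp. Sfi1, Tcp10c, Gm6468 and Zfp936 followed at 5.14 to 7.26 kb. Nbea and Dach1 were the farthest, at 128 and 145 kb, and are long genes of 559 and 383 kb. On the other side of the rule, the smallest overlaps of shared pairs in genes were 114 bp in Gm3629, where the folds were 2.63 and 1.74, and 169 and 177 bp in Gm36684.

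**Figure D5:**
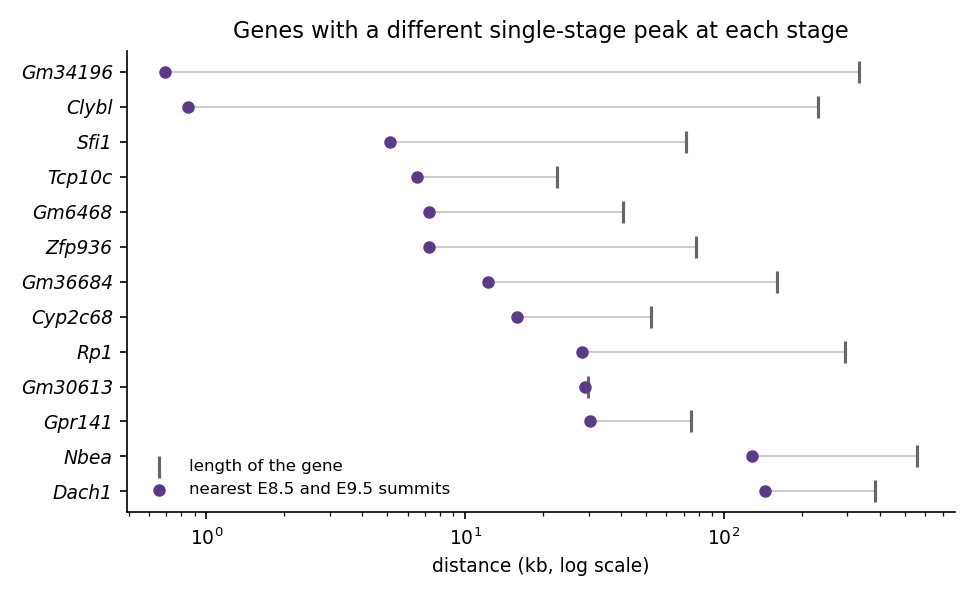
Distance in kb, on a log axis, between the nearest E8.5 and E9.5 summits in each of the 13 genes that hold single-stage peaks of both stages (dots), with the length of the gene (bars). The distances run from 0.692 kb in Gm34196 to 145 kb in Dach1, and in Gm30613 the summits lie nearly at opposite ends of the gene.

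A peak of the other library lay within 10 kb of 18 E8.5 peaks (11.7%) and of 17 E9.5 peaks (8.67%), and within 1 Mb of 51.3% and 40.3%. The median distance to it was 879 kb at E8.5 and 1406 kb at E9.5. For single-stage peaks outside genes a peak of the other library lay within 10 kb of 17.4% and 12.6%. After Gm34196 and Clybl, the nearest were 1006 bp in Sfi1 and 1257 bp in Tmem267 at E9.5 and 1035 bp in Gm21149 at E8.5. A peak called in 1 library can still have fragments under the threshold in the other, and the coverage of the other library at these places was not analysed here.

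Several peaks of the same stage lay in 10 hosts at E8.5 and in 12 at E9.5. The non-coding Gm36684 had 6 at E9.5 and 2 at E8.5, Tcp10c had 3 and 2, and Sfi1 had 2 and 3. Gm36684 also held shared peaks. Hosts that also held a shared peak numbered 5 at E8.5 and 4 at E9.5. Gm36684 and Tcp10c lie in the same 1 Mb window of chromosome 17 at 13 to 14 Mb, which together with Smok2b, a testis kinase gene, held 5 E8.5 and 9 E9.5 peaks. Other windows with at least 4 such peaks were 3 adjoining ones on chromosome 5 at 93 to 96 Mb with the PRAME-like genes, that at 15 to 16 Mb of chromosome 5 with Gm30613, and those of Cntnap2's end and Gm40363 on chromosome 6, of Sfi1 on chromosome 11 and of Zfp936, a zinc finger gene, on chromosome 7.

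These 8 windows held 24 E8.5 peaks (15.6%) and 23 E9.5 peaks (11.7%). Inside them 25% and 30.4% of peaks stood on the lowest background, against 77.7% and 74.6% of the others. The hosts inside had median lengths of 29.1 and 56.0 kb, and those outside 105 and 137 kb. Most peaks had no such company, and 64.3% at E8.5 and 65.3% at E9.5 were alone in their 1 Mb window. By chromosome, chromosome 5 held 22 E8.5 peaks (14.3%, 9.17 to 20.8%) with 7.38% of gene-body bases. Chromosome 17 held 17 E9.5 peaks (8.67%, 5.13 to 13.5%) with 4.31% of the bases, 9 of them in the window of Gm36684 and Tcp10c. Chromosome 2, with 9.17% of the bases, held 6 E9.5 peaks (3.06%).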

How the data were processed

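Brain DNA of 1 E8.5 and 1 E9.5 library was sonicated to 100 to 300 bp and pulled down with a 6mA kit, per the labels' protocols. Reads were trimmed with cutadapt 1.9.2 and aligned with Bowtie2 2.2.4 to mm10, per the submitters' processing notes. The authors called peaks in each library with MACS 2.1.1.20160309 against 1 input with a p-value threshold of 0.01, per the file headers. These also give a mappable genome of 1.27e+09 bases, windows of 1000 and 10000 bp for the local background and a limit of 2 copies per position. An uncorrected p-value threshold admits chance peaks. The deposited pileup is a signal, the fragment coverage at the summit. The deposited fold enrichment is a ratio of that coverage to the background, each with 1 added. The deposited p-values and q-values are −log10 values and were turned back to q.

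The background was recovered from pileup and fold, and counted as lowest within 0.005 of the library's minimum. Genes came from RefSeq on GRCm38.p6, without exons. Strand and promoter windows came from RefSeq's promoter table (247 of 308 hosts matched). No genome was at hand, so exons, repeats and base content of peaks were not analysed here. Shares carry exact Clopper-Pearson and counts exact Poisson 95% intervals. With 1 library per stage no test between stages was made.

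The peaks and lists were chosen with earlier results of these data known. The function classes, 7 added families and the 300 kb limit were chosen after the hosts were seen. Genes were named by fold (10 highest per stage), q, length (5 longest), repeated hits, list or class membership, and nearness to a peak of the other stage or a gene end, and some further examples of a class were picked after their values were seen. Some genes that this rule picks are not reported here. The rule that keeps or drops a peak was tested on simulated data. Over 20 simulated lists, 100% of 9940 peaks were rightly kept or dropped. The choice of host gene was not checked in this way. Alternatives covered a q of 0.05, the distance to the other list, midpoints, the host rule, the background and crowded windows. Computations ran in Python 3.11.15 (scipy 1.17.1, pandas 2.3.3, numpy 2.4.6), with plots by matplotlib 3.10.9.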

Additional observations from a re-analysis of the deposited data

How the results depend on the processing

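Of 40 alternatives to the number of peaks, the share in genes of 100 kb or more and the median host length, 36 stayed near the reported value (a count within 1.5 times, a share or median within the reported value's 95% interval) and 4 moved, all under a q of 0.05 or below. Apart from that q, the alternatives reuse most of the same peaks, so a value near the reported one was likely beforehand. The intervals of the median were wide, 54.5 to 109 kb at E8.5 and 83.3 to 156 kb at the later stage. Peaks on the lowest background alone numbered 107 and 136, with median hosts of 107 and 152 kb, and the shortest gene as host gave 77.9 and 97.2 kb. The limit of a q of 0.05 or below left 4 E8.5 peaks, and 7 of E9.5. At E8.5 it gave a share in long genes of 25% (1 of 4 peaks) and a median host of 26.2 kb. At E9.5 it gave 57.1% and 122 kb. Fewer peaks are left by construction, and no other cause was tested. In genes of 300 kb or more, an added limit, the stricter q left 0 of 4 and 0 of 7 peaks. Over its other alternatives that share was 15.8 to 17.5% at E8.5 and 28.7 to 35.3% at the later stage. No paired analysis was possible because each stage had 1 library. A coverage of 8 to 12 fragments limits what can be said of most peaks, and a peak missing from a list is not shown to be missing from the tissue.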

Other observations

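The lowest background was not spread evenly over the hosts. Among the neuronal class 10 of 11 E8.5 peaks and 28 of 32 E9.5 peaks stood on it, as did 7 of 7 and 6 of 7 in genes of membrane traffic and protein turnover. Among genes of reproduction and chemosensation 4 of 15 and 5 of 12 did, and among predicted protein-coding genes 9 of 17 and 5 of 12. The part of repeated sequence in this was not tested.

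The 3 Ifit peaks of E9.5 lay in the neighbouring chromosome 19 genes Ifit3 and Ifit1bl1, with 9 to 13 fragments. No Ifit gene had a peak at E8.5. By their share of bases the 6 Ifit genes would hold 0.0154 E8.5 and 0.0196 E9.5 peaks. This family was picked after its peaks were seen.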
